A study of Mus musculus with 3 samples.

Results

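Genes of the splicing machinery and its regulators were examined in cultured adult ventricular cardiomyocytes (ACMs) exposed to a gp130 family cytokine. Members were set by gene symbol and by no cut-off on their values, though earlier results of these data were known when they were chosen. They were all protein-coding genes named as SR proteins (Srsf), hnRNPs (Hnrnp), SF3A or SF3B subunits (Sf3a, Sf3b) or U2AF subunits (U2af). Added to these by name were the alternative splicing regulators Rbm20, Rbm24, Rbfox2, Celf1, Mbnl1, Mbnl2 and Ptbp1. This gave 50 of the 56748 genes in the deposited tables, namely 11 SR proteins, 20 hnRNPs, 9 SF3A and SF3B subunits, 3 U2AF subunits and 7 regulators. RNAseq was performed on 3 libraries, 1 per condition, so that no value has a replicate error. The cells came from hearts of WT mice, 8 to 10 weeks old and of both sexes at least for the vehicle and OSM libraries, were isolated by a Langendorff-free method and were plated on laminin. They were then kept in serum-free M199 with BSA, 2,3-butanedione monoxime (BDM), insulin-transferrin-selenium and lipid supplement. The vehicle library came from cells given 0.1% BSA, the OSM library from cells given mouse oncostatin-M at 10 ng/mL and the IL-6 library from cells given human interleukin-6 at 10 ng/mL, each for 16 h. RNA was pooled before each library was made, so that the spread between cultures or animals is not in the data.

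Splicing removes introns in the nucleus through the spliceosome, whose U2 particle recognises the branch point with the help of U2AF and of the SF3A and SF3B complexes. SR proteins mostly bind exonic enhancers and recruit the machinery, whereas hnRNPs coat nascent RNA and often repress the use of nearby sites. In the heart, RBM20, RBM24, the muscleblind proteins MBNL1 and MBNL2, the CELF proteins and RBFOX2 set which isoforms of sarcomere and calcium handling genes are made, and loss of RBM20 function causes cardiomyopathy. The values below are total transcripts per gene, and the use of single exons was not analysed here.

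The 5 members whose values are followed most closely below are the regulators Mbnl1, Rbm20, Mbnl2 and Rbm24 and the hnRNP Hnrnpa0. The 250 bases before the canonical start of each are shown because these regulators were lower and Hnrnpa0 was higher in the OSM library. Windows were read from GRCm39 at the GENCODE M39 canonical start, 5′ to 3′ on the strand of the gene. They are chr3:60408299-60408548 (+) for Mbnl1, chr19:53665447-53665696 (+) for Rbm20, chr14:120512682-120512931 (+) for Mbnl2, chr13:46571339-46571588 (+) for Rbm24 and chr13:58276371-58276620 (-) for Hnrnpa0. The window of Mbnl1 lies inside the span of the gene, whose longer transcripts start further upstream. Annotated transcripts of Mbnl1, Rbm20, Mbnl2, Rbm24 and Hnrnpa0 have 27, 4, 15, 9 and 1 distinct starts, and each window shows only 1 of them. Gene positions given below follow the authors' annotation and need not begin at the canonical start. Capitals mark GGGCGG, the GC box, or its reverse complement.
Mbnl1: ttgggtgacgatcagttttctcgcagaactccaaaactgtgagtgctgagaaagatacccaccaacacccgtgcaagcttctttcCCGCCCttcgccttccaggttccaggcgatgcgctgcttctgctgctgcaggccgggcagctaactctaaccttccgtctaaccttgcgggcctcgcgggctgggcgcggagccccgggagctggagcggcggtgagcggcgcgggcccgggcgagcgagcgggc
Rbm20: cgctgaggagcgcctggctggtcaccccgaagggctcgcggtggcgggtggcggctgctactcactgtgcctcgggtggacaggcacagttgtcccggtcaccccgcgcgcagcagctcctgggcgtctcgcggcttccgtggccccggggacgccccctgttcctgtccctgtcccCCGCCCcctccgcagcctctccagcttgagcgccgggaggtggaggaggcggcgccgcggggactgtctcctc
Mbnl2: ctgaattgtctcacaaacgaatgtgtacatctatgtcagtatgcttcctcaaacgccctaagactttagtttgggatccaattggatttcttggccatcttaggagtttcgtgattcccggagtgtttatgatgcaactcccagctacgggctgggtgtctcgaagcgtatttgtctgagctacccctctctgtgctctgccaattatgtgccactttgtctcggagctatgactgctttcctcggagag
Rbm24: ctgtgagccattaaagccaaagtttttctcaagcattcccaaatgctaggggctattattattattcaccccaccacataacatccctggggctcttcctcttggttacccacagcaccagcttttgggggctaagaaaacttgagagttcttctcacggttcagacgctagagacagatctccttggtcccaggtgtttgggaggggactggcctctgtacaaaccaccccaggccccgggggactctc
Hnrnpa0: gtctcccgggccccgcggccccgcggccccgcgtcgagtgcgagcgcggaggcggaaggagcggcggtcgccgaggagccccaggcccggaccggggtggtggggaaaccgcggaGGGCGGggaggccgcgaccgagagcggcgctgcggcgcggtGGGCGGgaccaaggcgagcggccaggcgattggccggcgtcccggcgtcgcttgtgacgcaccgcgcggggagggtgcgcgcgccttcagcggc

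The windows of Mbnl1 and Rbm20 each held 1 GC box, that of Hnrnpa0 held 2, and those of Mbnl2 and Rbm24 held none. On either strand, GGGCGG was found in 28 of 50 members and in 36.3% of the same windows of 21770 protein-coding genes. The letters TTCNNNGAA, the usual form of a STAT site, were in none of the 5 windows, in 1 of 50 members, an SR protein, and in 7.7% of all windows. CCAAT was found in 16 of 50 members and 36.5% of all windows, CCGGAA in 12 members and 12.4%, and CANNTG in 25 members and 64.8%. Searches covered both strands, and these motifs can overlap each other. A match or its absence describes these letters in this window and says nothing of binding. The median GC content was 59.6% over the members' windows and 53.2% over all windows.

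Library totals were 24939980 counts with vehicle, 26362446 with IL-6 and 30773001 with OSM, with 17.4%, 16.1% and 13.6% of counts on mitochondrial genes. All 8 cardiomyocyte markers were present in each library, with a summed level of 9760, 10000 and 12100 fpkm with vehicle, IL-6 and OSM. Summed levels were at most 1.08 fpkm for 7 fibroblast markers, 6.92 for 6 endothelial markers and 15.2 for 6 smooth muscle and pericyte markers, the last almost all from Acta2. Macrophage markers summed to 13.8, 14.3 and 39.9 fpkm, nearly all of it Cd68, while Fcgr1, C1qa and Ptprc were at 0 in each library. The part of these markers in the values of the members was not tested. Socs3, a STAT3 target, had 670 counts with vehicle, 646 with IL-6 and 18194 with OSM, so that its level in the IL-6 library was not above that with vehicle. The interleukin-6 receptor gene Il6ra had 24, 8 and 14 counts.

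The splicing genes were broadly present in these cells. The members summed to 891.9 fpkm with vehicle, 891.7 with IL-6 and 1001 with OSM. Levels of at least 10 fpkm were reached by 33 members with vehicle, 30 with IL-6 and 35 with OSM. Here fpkm is fragments of a gene scaled by its length and by the depth of the library, and allows genes to be compared for a given choice of length. The length is that of the authors' annotation, and the order of genes can differ with the length of the canonical transcript. Members with at most 1 count in any library were Srsf12 and U2af1l4. Srsf12, an SR protein, had 0, 1 and 0 counts with vehicle, IL-6 and OSM, and U2af1l4, a U2AF subunit paralog, had 0 in each library, where a count of 0 allows up to 0.12 CPM with vehicle. U2af1l4 shares 65.46% of its exonic bases with another gene on the same strand, and the part of this overlap in its counts was not tested. The other 48 members had at least 192 counts each with vehicle and entered every comparison.

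**Figure D1:**
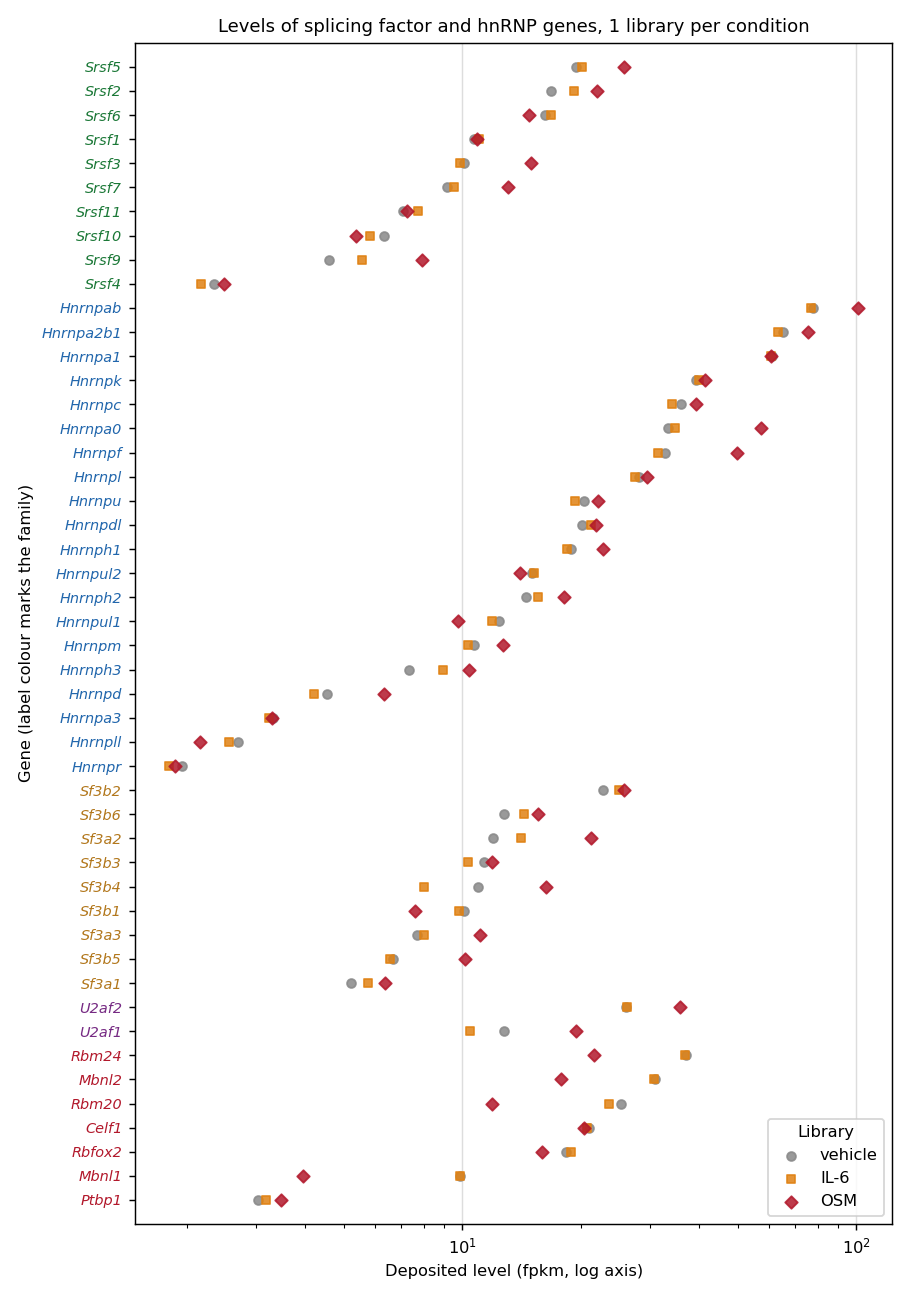
Deposited level in fpkm (log axis) of the 48 members with counts in the vehicle library, in the vehicle (grey circles), IL-6 (orange squares) and OSM (red diamonds) libraries, grouped by family and ordered by the vehicle level. Circles and squares mostly coincide, and the diamonds of Rbm24, Mbnl2, Rbm20 and Mbnl1 lie to the left of both.

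To determine which members differed with OSM, its library was compared with the vehicle library. The lowest members were the regulators Mbnl1, Rbm20, Mbnl2 and Rbm24, with log2 fold changes of -1.33, -1.08, -0.80 and -0.78 in the OSM library. Counted from the lowest of all genes compared, they stood at percentiles 8.85, 11.8, 17.4 and 17.8, so that drops of this size were not rare. Most hnRNPs and U2 factors, and 5 of 10 SR proteins, were slightly higher. Values are log2 ratios of TMM-scaled counts with a 95% interval that covers counting error only, and calling a gene required both ends of that interval to lie past 2-fold. On this basis 0 of 48 members were called higher and 2 lower, Mbnl1 and Rbm20, where 3.74% of the 15537 genes compared were called higher and 5.43% lower, which puts the members at or below the background. With the interval past 1.5-fold, Sf3a2 and Hnrnpa0 were higher (2 of 48) and the regulators Mbnl1, Rbm20, Mbnl2 and Rbm24 lower (4 of 48), where 8.73% and 11.9% of all genes were. With the whole interval past equal levels, 28 of 48 members (58.3%) were higher and 11 (22.9%) lower, against 33.4% and 33.1% of all genes. Passing this rule depends on depth. The 48 members had at least 192 counts each with vehicle, whereas all genes with 10 counts over the pair were compared, so that these shares are not alike in depth. Medians were 0.15 over the members, 0.00 over all genes compared and 0.01 over protein-coding genes. Protein-coding genes averaging 1000 counts or more had a median of 0.07. The central 95% of them lay between -1.23 and 1.14, a range that only Mbnl1 of the members left. These are differences between single libraries, and fewer cells of a type and less RNA per cell cannot be told apart in them.

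Transcript length moved with the OSM values. When protein-coding genes averaging 100 counts or more were ordered by length, the shortest eighth had a median of 0.47 with OSM and the longest eighth -0.56, whereas the same eighths had 0.02 and -0.03 with IL-6. Across 9442 such genes, which share their libraries and are not replicates, Spearman's rho between length and the OSM log2 fold change was -0.52 with the authors' gene length and -0.55 with the length of the GENCODE canonical transcript. For each member, the running median of genes of like length was therefore subtracted as a second value. Both length definitions were used, since the authors' length spans all exons of a gene, 18717 bases for Mbnl1, against 5587 in its canonical transcript. The part of length in the members' values was not tested beyond this subtraction.

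**Figure D2:**
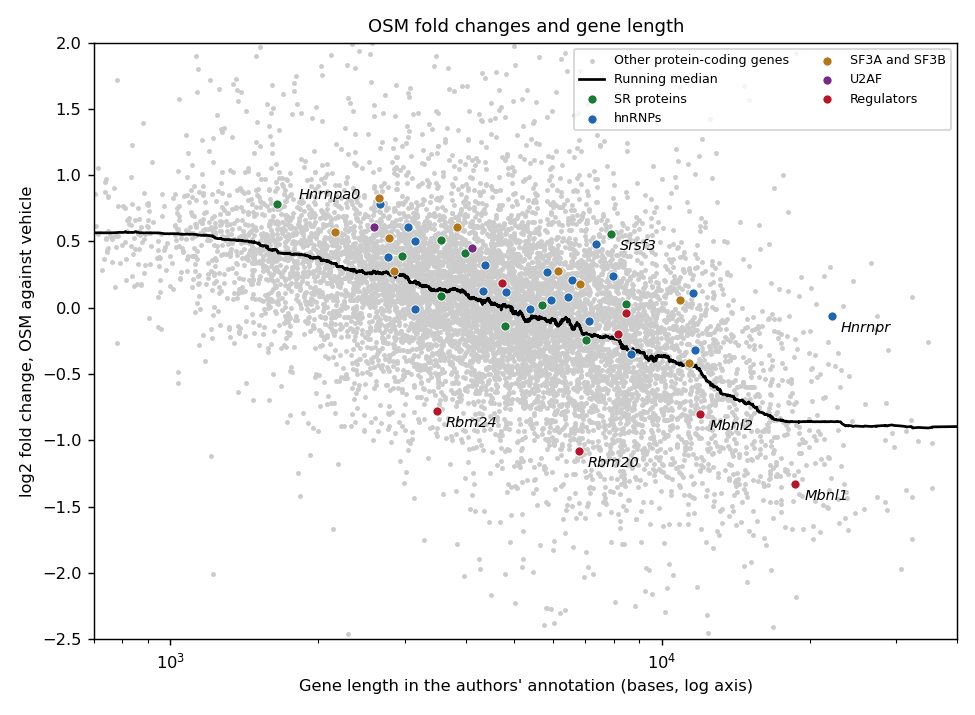
Log2 fold change of OSM against vehicle plotted against the authors' gene length (log axis, bases) for protein-coding genes averaging 100 counts or more (grey), with members coloured by family and the running median as a black line. The line falls from short to long genes, and Rbm24 and Rbm20 lie furthest below it among the members, whereas Hnrnpr and Srsf3 lie well above it. A few grey points lie outside the axis limits.

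Of the regulators, 5 of 7 were lower in the OSM library beyond counting error, 0 were higher and 2 were neither. Of all genes compared, 33.1% were lower and 33.4% higher by this rule. Mbnl1, which binds YGCY motifs and promotes adult isoforms in striated muscle, had 4690 counts with vehicle, 5001 with IL-6 and 2208 with OSM, or 9.91, 9.86 and 3.95 fpkm. Only the OSM library was low. With OSM it stood at -1.33 (-1.40 to -1.26) on the log2 scale, and at -0.47 relative to genes of its length in the authors' annotation or -1.04 relative to genes with a like canonical length. The gene lies at chr3:60380251-60537171 (+). Mbnl2, its paralog, had 9383, 9992 and 6372 counts with vehicle, IL-6 and OSM, the most of any regulator, at 30.9, 30.8 and 17.8 fpkm. It was lower with OSM by a log2 fold change of -0.80 (-0.85 to -0.75), with -0.32 and -1.02 after the subtractions by the authors' and the canonical length. Mbnl2 lies at chr14:120513081-120669109 (+), and its canonical transcript covers 2284 of its 11993 exonic bases. The muscleblind genes thus stayed below genes of like length by either definition, by amounts that depended on which length was used.

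Rbm20, which represses exons of titin and other sarcomere and calcium handling genes, had 4341 counts with vehicle, 4346 with IL-6 and 2420 with OSM, or 25.3, 23.6 and 11.9 fpkm. On the log2 scale the OSM library stood at -1.08 (-1.16 to -1.01), so that its interval ended just beyond 2-fold. It was -0.95 and -0.71 relative to genes of like authors' and canonical length, which are nearly equal for this gene at 6790 and 6635 bases. Rbm20 lies at chr19:53665737-53855511 (+). Rbm24, a muscle RNA-binding protein needed for sarcomere assembly, had 3266, 3477 and 2249 counts with vehicle, IL-6 and OSM, or 37.0, 36.8 and 21.6 fpkm. That was the highest fpkm of a regulator in each library, a rank that rests on the authors' gene length. Mbnl2 had more counts in each library over a shorter canonical transcript, of 2284 against 3407 bases, and stands above Rbm24 by that length. So does Rbfox2, which had more counts than Rbm24 in each library over a canonical transcript of 2218 bases. The OSM value of Rbm24 was -0.78 (-0.86 to -0.70) on the log2 scale. As a short gene of 3491 bases at chr13:46571910-46584571 (+), it was compared with genes that were on balance slightly higher, and the value relative to them was -0.91, or -0.82 by canonical length. Neither Rbm20 nor Rbm24 shares exonic bases with another gene or has a copy elsewhere in the genome at 97% identity.

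The other regulators differed less. Rbfox2, which binds UGCAUG beside alternative exons, had 3770 counts with vehicle, 4162 with IL-6 and 3886 with OSM, with a log2 fold change of -0.20 (-0.26 to -0.13) with OSM that became 0.04 after subtraction by the authors' length and -0.45 by the canonical one. Its direction therefore depended on the length used. Celf1, which opposes MBNL proteins at many exons and is high in the fetal heart, had 4495, 4757 and 5153 counts with vehicle, IL-6 and OSM, and its OSM value of -0.04 (-0.10 to 0.01) was within counting error. It became 0.26 and 0.54 after the subtractions. Ptbp1, a repressor of alternative exons that is low in mature muscle, was the least abundant regulator at 3.04, 3.18 and 3.48 fpkm with vehicle, IL-6 and OSM, and its value with OSM was 0.19 (-0.01 to 0.39). Ratios within a library do not depend on the scaling between libraries. The ratio of Mbnl1 to Celf1 counts was 1.04 (1.00 to 1.09) with vehicle, 1.05 (1.01 to 1.09) with IL-6 and 0.428 (0.407 to 0.450) with OSM. The ratio of Rbm20 to Celf1 was 0.966 (0.926 to 1.01), 0.914 (0.877 to 0.952) and 0.470 (0.447 to 0.493), and that of Mbnl2 to Celf1 was 2.09, 2.10 and 1.24. In each case the vehicle and IL-6 ratios lay close together and the OSM ratio stood apart. Together the 7 regulators summed to 145.5 fpkm with vehicle, 143.8 with IL-6 and 95.1 with OSM, while the other members summed to 746.4, 747.9 and 905.6 fpkm.

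The SR proteins had a median log2 fold change of 0.24 with OSM over the 10 compared, or 0.22 and 0.17 relative to genes of like authors' and canonical length. Of these 10, 5 were higher beyond counting error, 2 were lower and 3 were neither, where 33.4% of all genes were higher and 33.1% lower. The most abundant was Srsf5, an SR protein gene with 97 annotated transcripts, at 19.4 fpkm with vehicle, 20.2 with IL-6 and 25.8 with OSM. Srsf2 (SC35) had 16.8, 19.2 and 22.0 fpkm in the same order and Srsf6 had 16.3, 16.8 and 14.8. Srsf9 was furthest to the higher side, with 192, 249 and 391 counts and a log2 fold change of 0.78 (0.53 to 1.04), the widest interval among the higher members because it had the fewest counts. It is the shortest compared member at 1653 bases, and the value became 0.36 and 0.33 after the subtractions. Srsf3, which also acts in RNA export, had 2022 counts with vehicle, 2117 with IL-6 and 3521 with OSM. Its log2 fold change of 0.56 (0.48 to 0.64) became 0.78 relative to genes of its 7899 bases and 0.46 by canonical length. Srsf10 was lower at -0.24 (-0.36 to -0.12), with 1121, 1107 and 1123 counts, since the OSM library was the deepest. Srsf6 was lower at -0.14 (-0.23 to -0.05), which became 0.07 by canonical length. Srsf1, the founding SR protein, was flat with 10.75, 11.01 and 10.91 fpkm. The ratio of Srsf3 to Srsf6 counts was 1.02 (0.960 to 1.09) with vehicle, 0.968 (0.911 to 1.03) with IL-6 and 1.66 (1.57 to 1.75) with OSM. By these counts, members of the same family did not keep their proportions. Copies at 97% identity cover 78.6% of the canonical transcript of Srsf5, 52.52% of that of Srsf10 and 44.77% of that of Srsf3. The treatment of reads with several matches is not stated, which limits these values.

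The hnRNPs were the most abundant family, with a summed level of 505.3 fpkm with vehicle, 501.3 with IL-6 and 600.0 with OSM. The median with OSM was 0.12, with 14 of 20 higher beyond counting error, 3 lower and 3 neither, where 33.4% of all genes were higher and 33.1% lower. Hnrnpab, a CArG box and RNA-binding protein, had the highest fpkm of the members, at 77.6, 76.8 and 101.1 with vehicle, IL-6 and OSM. This rank rests on the authors' length. By canonical length, of 2081 bases for Hnrnpab and 2935 for Hnrnpa2b1, Hnrnpa2b1 stands above it in each library. The regulator Mbnl2, with 2284 bases, stands above both by that length with vehicle and IL-6. The value of Hnrnpab with OSM was 0.38 (0.33 to 0.43), or 0.12 and 0.13 relative to genes of like authors' and canonical length. Hnrnpa2b1, which sorts RNAs and reads many splice sites, had the most counts at 10888, 11273 and 14868, with 0.21 (0.17 to 0.24), or 0.37 and 0.10 after the subtractions. Hnrnpa1, its close relative and a repressor of exon inclusion, had 61.1, 60.9 and 60.7 fpkm with vehicle, IL-6 and OSM, with -0.01 (-0.07 to 0.04), or -0.21 and -0.35 after the subtractions. The abundant A/B group thus held members within and past counting error. Hnrnpa0, a gene with 1 exon at chr13:58273693-58276370 (-), had 33.3 fpkm with vehicle, 34.8 with IL-6 and 57.3 with OSM. It was higher with OSM by 0.78 (0.71 to 0.85), which was 0.52 relative to genes of its length and 0.64 by canonical length. Its ratio to Hnrnpa1 counts was 0.462 (0.440 to 0.486) with vehicle, 0.485 (0.462 to 0.509) with IL-6 and 0.802 (0.771 to 0.834) with OSM. Hnrnpf, which binds G-rich runs, had 2520, 2600 and 4535 counts and was higher by 0.61 (0.54 to 0.68), or by 0.38 and 0.84 after the subtractions.

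At the other end of this family, Hnrnpul1 was lower with OSM at -0.35 (-0.42 to -0.27), with 2717, 2797 and 2529 counts with vehicle, IL-6 and OSM, and Hnrnpll was lower at -0.32 (-0.47 to -0.18), with 799, 812 and 755 counts. Relative to genes of their authors' length these became -0.01 and 0.12, and by canonical length -0.27 and -0.10. Both are long genes, of 8654 and 11677 bases. Hnrnpr, the longest member at 22199 bases, had 1095, 1087 and 1241 counts and was within counting error at -0.06 (-0.18 to 0.06), but lay 0.80 above genes of its authors' length and 0.90 above those of its canonical length. Near-identical copies limit some of these values, as the treatment of reads with several matches is not stated. At 97% identity or more, sequence elsewhere in the genome covered 99.81% of the canonical transcript of Hnrnpa3, 97.45% of that of Hnrnpa1, 93.63% of Hnrnph2 and 83.19% of U2af1, and none of the 7 regulators had such a copy. Hnrnpa3 had 452, 472 and 530 counts, few for an hnRNP, and its level is uncertain for this reason.

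**Figure D3:**
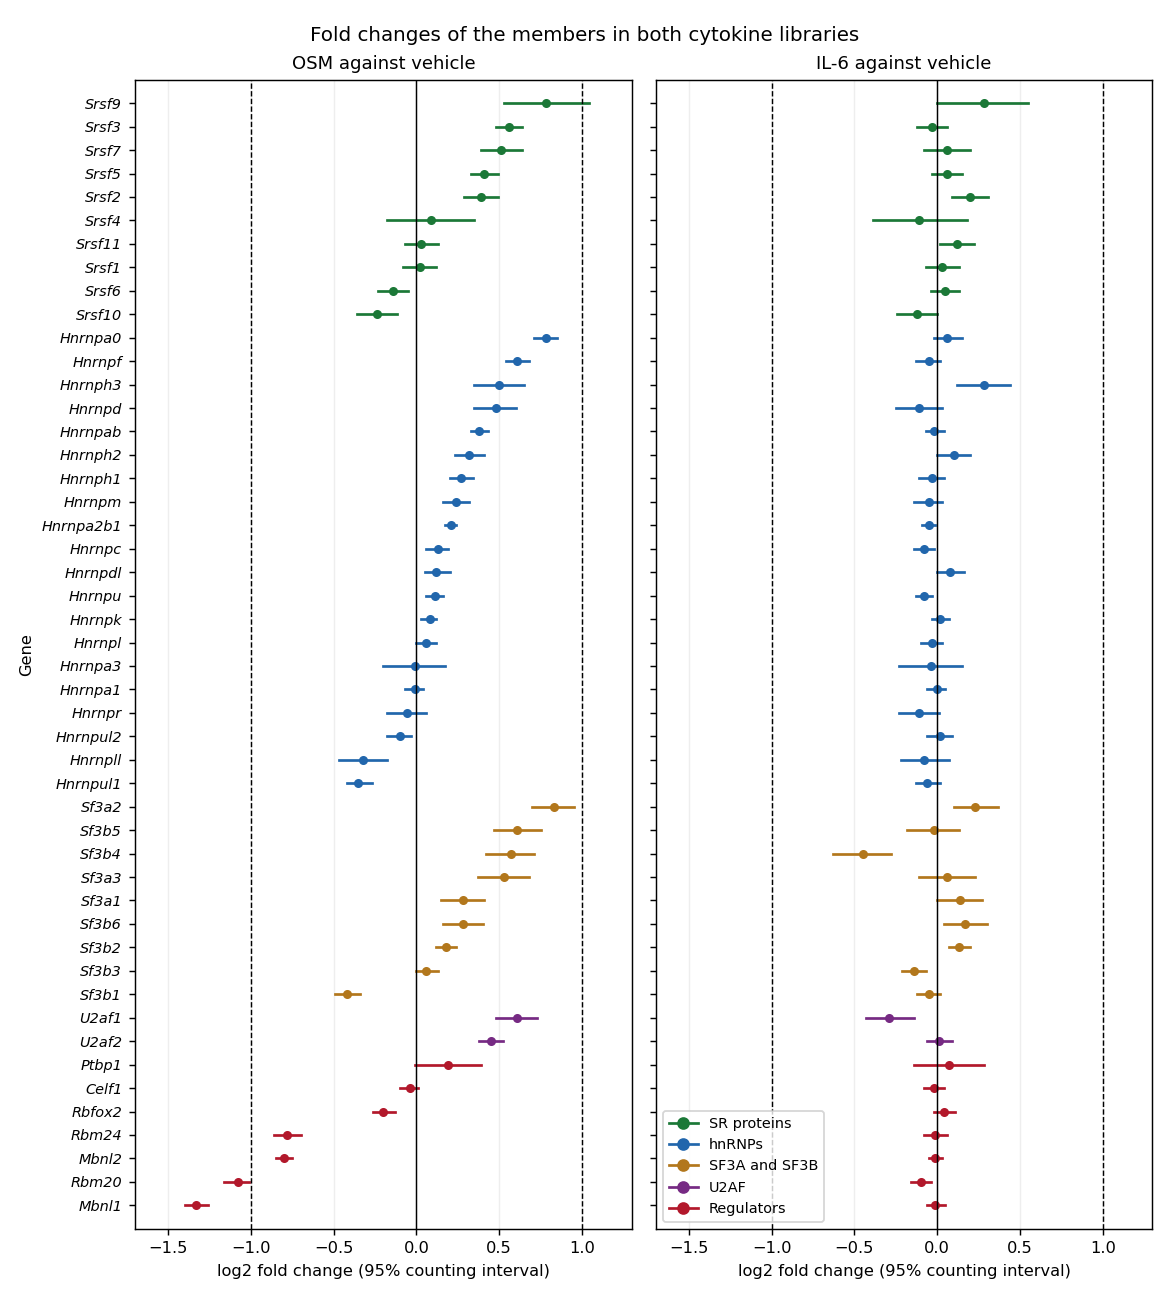
Log2 fold change of each of the 48 compared members (points) with its 95% counting interval (lines) for OSM against vehicle (left) and IL-6 against vehicle (right), which share the vehicle library, with dashed lines at 2-fold. On the left the lowest regulators reach -1.33 and Sf3a2 reaches 0.83, and on the right the members lie between -0.45 and 0.28.

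The SF3A and SF3B subunits, which anchor the U2 particle at the branch point, had a median log2 fold change of 0.28 with OSM. Beyond counting error 7 of 9 were higher, 1 lower and 1 neither, where 33.4% of all genes were higher and 33.1% lower. Sf3a2 was furthest to the higher side among all members, with 805 counts with vehicle, 1015 with IL-6 and 1688 with OSM and a value of 0.83 (0.70 to 0.95), or 0.56 and 0.65 relative to genes of like authors' and canonical length. It shares 28.29% of its exonic bases with Plekhj1 on the opposite strand, whose counts were 361, 454 and 747, and whether counting used the strand is not stated. Sf3b5, a small subunit encoded by 1 exon, had 647, 682 and 1164 counts and was higher by 0.61 (0.47 to 0.75), or by 0.48 and 0.67 after the subtractions. Sf3b1, the subunit that contacts the branch point and is mutated in blood cancers, was the exception, with 2915, 3018 and 2581 counts and -0.42 (-0.49 to -0.34). Relative to genes of its 11370 bases it was at 0.03, and by canonical length at -0.09. Sf3b2 was the most abundant subunit at 22.7, 24.95 and 25.8 fpkm with vehicle, IL-6 and OSM, and Sf3b6, the branch point adenosine-binding p14 protein, had 12.8, 14.4 and 15.5 fpkm. By fpkm, Sf3a2 was below Sf3b6 with vehicle and IL-6, at 12.0 and 14.1 fpkm, and above it with OSM, at 21.3 fpkm. This change of order rests on the authors' lengths of 2658 bases for Sf3a2 and 2854 for Sf3b6. By canonical length, of 2458 and 1190 bases, Sf3a2 was below Sf3b6 in each library. The subunits of this complex thus differed from each other in direction by gene-level counts, and the lone lower subunit was close to genes of its length.

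Both compared U2AF subunits were higher with OSM beyond counting error, as were 33.4% of all genes compared. U2af1, which reads the AG at the end of the intron, had 837 counts with vehicle, 736 with IL-6 and 1506 with OSM, with a log2 fold change of 0.61 (0.48 to 0.73). U2af2, which binds the polypyrimidine tract, had 2710, 2926 and 4379 counts and 0.45 (0.38 to 0.52). After subtraction by the authors' length these were 0.33 and 0.38, and by canonical length 0.12 and 0.21.

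The IL-6 library was close to the vehicle library for the members. None of 48 members was called higher or lower (0 in each direction), where 1.77% of 15472 genes were called higher and 1.74% lower. Past equal levels, 8 members (16.7%) were higher and 7 (14.6%) lower, against 19.6% and 19.1% of all genes. Over the members the median was -0.01. The highest values were those of Srsf9 at 0.28 (0.00 to 0.55), Hnrnph3 at 0.28 (0.12 to 0.44) and Sf3a2 at 0.23 (0.10 to 0.37). The lowest were those of Sf3b4 at -0.45 (-0.63 to -0.28), U2af1 at -0.29 (-0.43 to -0.14) and Sf3b3 at -0.14 (-0.21 to -0.07). Sf3b4, the SF3B subunit mutated in Nager syndrome, had 600 counts with vehicle, 470 with IL-6 and 1051 with OSM, and copies at 97% identity cover 66.64% of its canonical transcript. Among the regulators, Mbnl1, Mbnl2 and Rbm24 were each at -0.01 and only Rbm20 lay past counting error, at -0.10 (-0.16 to -0.04). For comparison, the central 95% of protein-coding genes averaging 1000 counts or more lay between -0.22 and 0.22 with IL-6 and between -1.23 and 1.14 with OSM.

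The OSM and IL-6 libraries were also compared directly. Of 48 members, 0 were called higher and 1 lower, Mbnl1 at -1.32 (-1.39 to -1.25), where 4.24% of 15544 genes were called higher and 5.42% lower. Past equal levels, 26 members were higher (54.2%) and 10 lower (20.8%), against 33.2% of all genes in each direction. These shares too are not alike in depth. Rbm20 was lower at -0.99 (-1.06 to -0.91), so that its interval crossed 2-fold, Mbnl2 at -0.79 (-0.84 to -0.75) and Rbm24 at -0.77 (-0.85 to -0.69). On the higher side, Sf3b4 was at 1.02 (0.86 to 1.18) and U2af1 at 0.89 (0.76 to 1.02). Length moved with these values too, with medians of 0.46 in the shortest eighth and -0.53 in the longest. Relative to genes of like authors' and canonical length, Sf3b4 was at 0.70 and 0.81 and U2af1 at 0.62 and 0.43. By the same subtractions Mbnl1 was at -0.50 and -1.05, Rbm20 at -0.84 and -0.63, Mbnl2 at -0.33 and -1.02 and Rbm24 at -0.91 and -0.78. With the interval past 1.5-fold, 4 members were higher and 4 lower, where 8.78% and 11.9% of all genes were. This comparison shares the OSM library with the first and the IL-6 library with the second, so that its values are not independent of theirs.

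The other parts of the splicing pathway were described by lists of genes, for which counts are of genes past counting error with OSM against vehicle. For these lists and the RBM20 targets below, like length means the authors' gene length only. No subtraction by canonical length was made for them, and among the members the choice of length changed some values and directions. Of all genes compared, 33.4% were higher and 33.1% lower by this rule, which depends on depth. The snRNP list, made up of the Sm and LSm proteins and of proteins particular to the U1 or U2 snRNP, lay on 1 side, with 19 of 19 compared higher, 0 lower and a median of 0.65, or 0.45 relative to genes of like length. Snrpe, an Sm ring subunit, was called higher at 1.56 (1.34 to 1.78) with 227 counts with vehicle, 375 with IL-6 and 790 with OSM, and Lsm7, an LSm ring subunit, at 1.47 (1.24 to 1.72) with 188, 304 and 617, and they were at 1.05 and 1.04 relative to genes of like length. Their IL-6 counts lay between those of the other libraries. In the exon junction complex, 6 of 6 genes were higher with a median of 0.56, or 0.32 relative to genes of like length, and the largest value was that of its core subunit Magoh at 0.91 (0.73 to 1.08), or 0.34 by the same subtraction. Among U5 and tri-snRNP genes 7 of 12 were higher and 3 lower, with a median of 0.12, and the largest value was that of Prpf8, the catalytic core scaffold, at -1.07, with an interval that reached 2-fold, or -0.85 relative to genes of like length. Of the Prp19 and catalytic factors 10 of 19 were higher and 6 lower, with a median of 0.12, or 0.00 relative to genes of like length, and Aqr, an intron-binding helicase, was at -0.64 (-0.76 to -0.51), or -0.18. Other U2 and branch point factors had 5 of 9 higher and 2 lower, with a median of 0.26 and Phf5a, which sits in SF3B, at 0.56 (0.43 to 0.69), or 0.22 relative to genes of like length.

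A further list held kinases that modify SR proteins and the import receptors Tnpo3 and Tnpo1. None of the 11 was higher (0) and 9 were lower, where 33.4% and 33.1% of all genes were. The median was -0.38, which became 0.06 relative to genes of like authors' length. Tnpo1, which carries hnRNPs such as HNRNPA1 into the nucleus, had 6389 counts with vehicle, 7021 with IL-6 and 4298 with OSM, at -0.81 (-0.87 to -0.76), or -0.38 relative to genes of like length. Tnpo3, the importer of SR proteins, was at -0.43 (-0.51 to -0.35), which became 0.19. The SR-related proteins had 4 of 11 higher and 6 lower with a median of -0.19, which turned to 0.19 relative to genes of like length, and Srrm4, an activator of microexons, was called lower at -2.69 (-3.38 to -2.05) on 131, 200 and 24 counts. Of 31 other alternative splicing regulators 14 were higher and 8 lower, with a median of 0.09, or 0.17 relative to genes of like length, and Nova1, mainly known from neurons, was at -1.50 (-2.48 to -0.60) on 36, 43 and 15 counts. Nonsense-mediated decay genes had 3 of 10 higher and 5 lower with a median of -0.15, or -0.25 relative to genes of like length, and the kinase Smg1, a gene of 23984 bases, was called lower at -1.68 (-1.78 to -1.57), or -0.79 by the same subtraction.

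**Figure D4:**
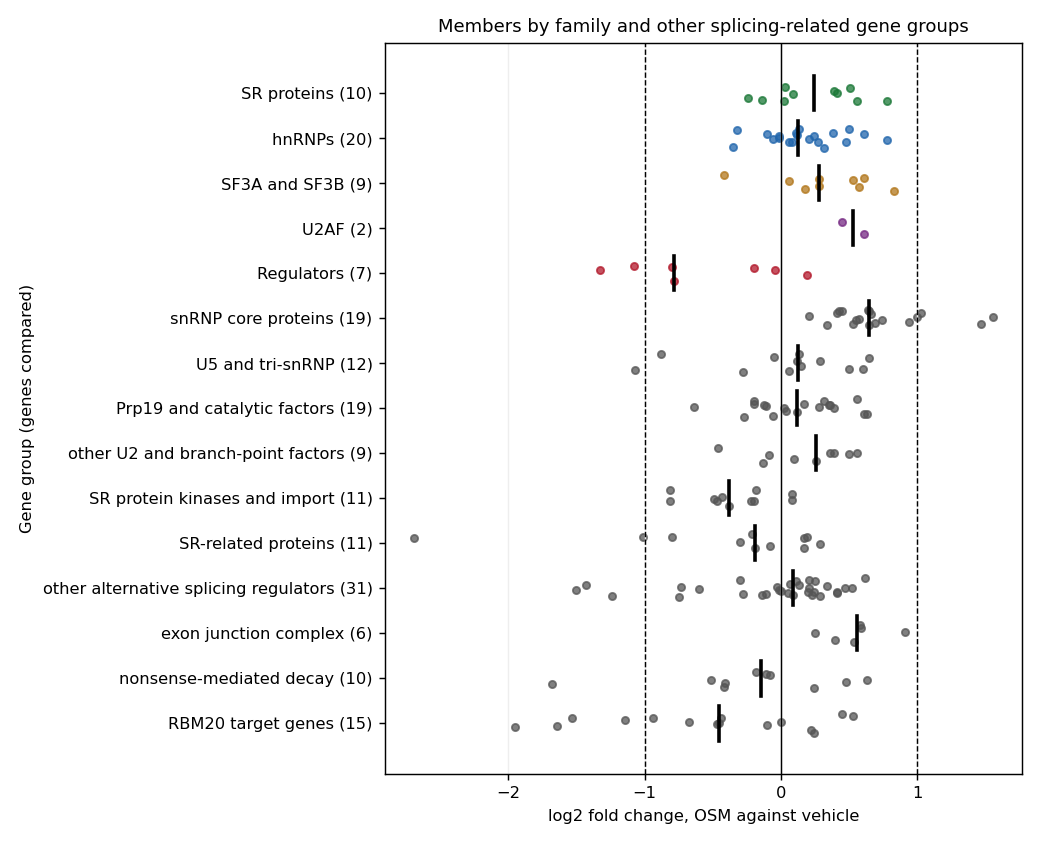
Log2 fold change of OSM against vehicle for the members by family (coloured) and for other splicing-related gene groups (grey), 1 point per compared gene, with a black bar at each median and dashed lines at 2-fold. The regulators have the lowest median, -0.78, and the snRNP core proteins the highest, 0.65.

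Known RBM20 targets were followed at the gene level, which does not show how their exons were spliced. Of 15 genes, 2 were higher and 10 lower past counting error, where 33.4% and 33.1% of all genes were. Among the 10, 4 were called lower, as were 5.43% of all genes. The median of the 15 was -0.45. It became -0.01 relative to genes of like authors' length, and several of these genes are among the longest. Titin (Ttn), the sarcomere spring, had 18901 counts with vehicle, 20398 with IL-6 and 7191 with OSM and a value of -1.64. The ryanodine receptor Ryr2 was at -1.53 (-1.56 to -1.49) and the calcium channel gene Cacna1c at -1.14 (-1.21 to -1.06). Relative to the running median, Ttn was at -0.74, Ryr2 at -0.64 and Cacna1c at -0.28. For the longest genes this median is not one of like length. Ttn has 117334 bases, and most genes behind its median are shorter.

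Transcripts that are targets of nonsense-mediated decay are common among splicing factors, many of which limit their own level through a poison exon. In GENCODE M39, 41 of 50 members (82%) had at least 1 transcript annotated as such, against 54.5% of 21770 protein-coding genes. All 11 SR protein genes had one, as did 14 of 20 hnRNPs and 6 of 7 regulators. The deposited counts sum all transcripts of a gene, so that a productive and a decay form cannot be told apart in any member. Several members also overlap other genes: Srsf2 shares 57.94% of its exonic bases with Mettl23 and 50.42% with Mfsd11, Srsf9 shares 46.28% with Gatc and Hnrnpab 35.51% with Phykpl, and the values of these members are uncertain where strand was not used. Mbnl1 and Celf1 share none.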

How the data were processed

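RNAseq libraries of vehicle, IL-6 and OSM treated ACMs, 1 each, were analysed. Paired reads were mapped to GRCm39, and the authors deposited raw counts per gene from featureCounts and FPKM values per gene calculated from them over the authors' gene length. The submitters' processing notes name fastp, HISAT2 2.2.1, featureCounts 2.0.6 and edgeR 4.0.16, and the paper names other versions of the last pair. Strand and multiple-match settings are not given in the sources used here. No per-sample column was left unmatched (0).

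From the counts, TMM factors were calculated for each pair of libraries with edgeR 4.0.16 (R 4.3.3). A gene was compared where the pair of libraries held 10 or more of its counts. Intervals are 95% Clopper-Pearson intervals (scipy 1.17.1) of the counts given their sum. Reads lack molecular identifiers, so that intervals and floors (3 counts) cover counting error only. With 1 library per condition no test across replicates was made and no p-value is given, and each comparison is between libraries. The length trend is a running median over protein-coding genes averaging 100 counts or more, ordered by length. Copies were sought with blastn 2.17.0 over at least 100 bases. Gene positions are those of the authors' annotation. Scripts were tested on simulated data. Alternatives were DESeq2 1.42.0 size factors, total counts, FPKM, other filters and folds, assumed dispersions and removal of the length trend. Removal of the trend by canonical length was chosen after seeing the data.

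The members and lists were chosen with earlier results of these data known. Named were members called in any pair, in each family the 3 with the highest mean FPKM and the 2 with the largest OSM value in each direction, all regulators, the 3 with the largest IL-6 value in each direction, and of each list the called genes or otherwise the 1 with the largest OSM value. Srsf1, Srsf3, Hnrnpf, Hnrnpr, Hnrnpa3, Hnrnpul1, Tnpo3, Socs3 and Il6ra and members named for overlaps or copies were otherwise named after their values were seen. Of the called genes in the lists, 1 is not reported here.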

Additional observations from a re-analysis of the deposited data

Results flagged for a closer look

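The OSM and IL-6 libraries lay on opposite sides of the vehicle library, each past counting error, for 5 of 48 members (10.4%), all with OSM above and IL-6 below, where 4.28% of the 14830 genes compared in both were placed so. Genes with few counts are less likely to pass counting error on both sides, so that the shares are not alike in depth and are not read as a trait of the members. With OSM above and IL-6 below, the log2 fold change of OSM against IL-6 was 1.02 for Sf3b4, 0.89 for U2af1, 0.26 for Hnrnpa2b1, 0.21 for Hnrnpc and 0.19 for Hnrnpu. In the same order, their values of IL-6 against vehicle were -0.45, -0.29, -0.05, -0.08 and -0.08. The shared vehicle library enters both sides, and with 1 library per condition the difference between the cytokines was not tested. Copies at 97% identity cover 66.64% of the canonical transcript of Sf3b4, 83.19% of that of U2af1 and 48.87% of that of Hnrnpc.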

How the results depend on the processing

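For OSM against vehicle, DESeq2 size factors, total counts, FPKM and both other count filters left 0 members higher and 2 lower. Asking for the interval beyond 1.5-fold gave 2 higher and 4 lower, against 8.73% and 11.9% of all genes. An edgeR exact test with an assumed coefficient of variation of 0.2 left 1 lower, as Rbm20 was lost, and one of 0.4 left 0. With the length trend removed, 0 were lower and the median of the members was 0.25 in place of 0.15, and 0 were lower by canonical length also. For OSM against IL-6, 1.5-fold gave 4 higher and 4 lower, against 8.78% and 11.9% of all genes, a point estimate beyond 2-fold gave 1 higher (Sf3b4), and the assumed 0.4 and both length trends left 0 lower. No called value changed sign. Vehicle levels of 10 fpkm were reached by 33 members, or 38 by canonical length. No paired analysis was possible because each condition has 1 library, and for the same reason no library could be left out. Depth limits Srsf12 and U2af1l4, and counting intervals leave out the variation between cultures.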

Other observations

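In the comparison of the OSM and IL-6 libraries, the snRNP core proteins had 16 of 19 genes higher past counting error and 0 lower. Their median was 0.54 on the log2 scale, or 0.32 relative to genes of like authors' length. The exon junction complex had 5 of 6 higher with a median of 0.48, or 0.29 by the same subtraction. Of all genes compared, 33.2% were higher and 33.2% lower. With IL-6 against vehicle the same lists had medians of 0.03 and 0.06. The ratio of Mbnl1 to Mbnl2 counts, which lay in 0.483 to 0.518 with vehicle and 0.484 to 0.518 with IL-6, was 0.347 (0.330 to 0.364) with OSM. That of Rbm20 to Rbm24 was 1.33 (1.27 to 1.39) with vehicle, 1.25 (1.20 to 1.31) with IL-6 and 1.08 (1.02 to 1.14) with OSM.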
